A study of Mus musculus with 4 samples.

Results

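The methionine cycle and methyl transfer enzymes were followed through hepatocyte nuclei of the mouse liver. The set was the 10 listed genes Mat1a, Bhmt, Bhmt2, Gnmt, Cbs, Ahcy, Pemt, Mtr, Dmgdh and Sardh, out of 32285 mouse genes in the count tables, and all 10 were found by symbol and passed the filters on low counts. Their levels are given as counts per 1000000 (CPM): the unique molecular identifiers (UMIs, 1 per captured RNA molecule) of a gene, added up over a library's hepatocyte nuclei and divided by the UMIs of all mouse genes in them. CPM of 3' tags does not correct for length or capture, so levels were compared between libraries and zones and not between genes.

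The study placed Bl/6 mice on a chow diet (CD) or a low-protein diet (LPD) for 1 week, injected plasmids hydrodynamically into the tail vein, and kept the diet for 2 more weeks. The oncogene plasmids carried human c-MET and an N-terminally truncated β-catenin (ΔN90), inserted by the Sleeping Beauty transposase and driven by the EF1α promoter, so that only the hepatocytes that took up plasmid carry them. Controls received vector. There was 1 single-nucleus library in each of the 4 groups, from frozen liver, labelled control or oncogene on either diet. The study's methods give young adult males for its tumour work unless stated otherwise. An age for these libraries in particular, and whether livers were pooled, are not given in the sources used here. Differences between libraries therefore have no replicate check and no p-value, and every 95% interval below covers counting error only. Zones, in contrast, were compared within each of the 4 libraries and were tested.

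The transgenes were examined first. On CD, 100 transgene UMIs were found under the label control and 0 under the label oncogene. On LPD, 0 were found under control and 6 under oncogene. The CD labels were thus at odds with the transgenes. In the files, the library labelled CD oncogene also held more barcodes (13014) than the one labelled CD control (11063). The study's text gives more nuclei to its CD control than to its CD oncogene sample. The libraries are called by their labels throughout, and any direction drawn between the CD libraries depends on which label is right. Hepatocyte nuclei numbered 8374, 10358, 8008 and 7093 with the CD libraries first and control before oncogene within a diet, which is the order of every series of 4 values below. Median depth of all kept nuclei was 3807, 3294, 1962 and 1762 UMIs and the median mitochondrial share was 2.42%, 0.983%, 0.100% and 0.127%, so depth and mitochondrial share separated the diets as well. From 18 to 40 barcodes were shared by each pair of libraries. The summed hepatocyte markers stood at 15057 to 18889 CPM in hepatocyte nuclei. They stood at 13827 and 12137 CPM in the nuclei of all other classes of the CD libraries, against 5601 and 5158 CPM in the LPD libraries, so more hepatocyte RNA was found outside hepatocytes on CD.

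The methionine cycle makes S-adenosylmethionine (SAM), the donor of most methyl groups, and the liver is its main site. MAT1A forms SAM from methionine, methyltransferases such as GNMT and PEMT use it and leave S-adenosylhomocysteine, and AHCY splits this product into homocysteine and adenosine. Homocysteine is either committed to cysteine by CBS or returned to methionine by BHMT with betaine or by MTR with methylfolate, and the methyl groups left on dimethylglycine and sarcosine pass to folate through DMGDH and SARDH.

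3 of the 10 genes lie side by side on chromosome 13 (GRCm38). Bhmt (ENSMUSG00000074768) spans 93616675 to 93637961 on the minus strand, Bhmt2 (ENSMUSG00000042118) spans 93655720 to 93674302 on the same strand, and Dmgdh (ENSMUSG00000042102) runs the other way from 93674433 to 93752833. The RefSeq start site of Bhmt2 lies 36544 bases from that of Bhmt. The following sequences are shown because Bhmt differed between the diets far more than its neighbours did: the first is a stretch upstream of the RefSeq start of Bhmt, and the second is the whole interval between the annotated starts of Bhmt2 and Dmgdh. They are written 5′ to 3′ from the RefSeq promoter table (GRCm38.p6), and capitals mark the letters CAAAGGTCA.
Bhmt, chr13:93637790-93637819, minus strand: ctgctattggaCAAAGGTCAgtgtgcagac
Bhmt2 to Dmgdh, chr13:93674303-93674432, plus strand: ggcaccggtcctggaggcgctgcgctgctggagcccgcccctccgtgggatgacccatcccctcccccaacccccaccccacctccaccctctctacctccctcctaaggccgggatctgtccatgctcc
The marked letters hold a single AGGTCA, the unit that is repeated in direct-repeat sites of nuclear receptors. No other exact copy of it lies in the 30 bases shown. The letters were picked after the sequence was read. They lie 50 to 42 bases before the RefSeq start, inside the first exon (93637464 to 93637961) of a longer annotated transcript. On either strand of the 250 bases before the start they were found in 0.426% of 32851 promoters in the table, and among the 10 entries for 9 of the enzymes (none for Mat1a) in that of Bhmt only. The interval of 130 bases between Bhmt2 and Dmgdh has a G + C share of 70.8%. The 30 bases shown for Bhmt, a window cut around the marked letters, have 50%. These stretches are unlike in length and choice, so the shares do not compare the promoters. Of the other motifs searched in the same way, CTTTGAT (TCF/LEF) was present for Pemt and in 3.21% of all promoters. CACGTG (E-box) was present for Cbs and in 6.02%. CAAAGTCCA (HNF4), TGATGNAAT (C/EBP-ATF) and TATAAA were found in no entry of the enzymes, and in 0.384%, 0.816% and 12.4% of all promoters. A match of letters is a description and not a binding site.

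The plot of levels by library shows that Mat1a and Bhmt were the members whose 2 LPD libraries stood furthest from the 2 CD libraries, in opposite directions.

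**Figure D1:**
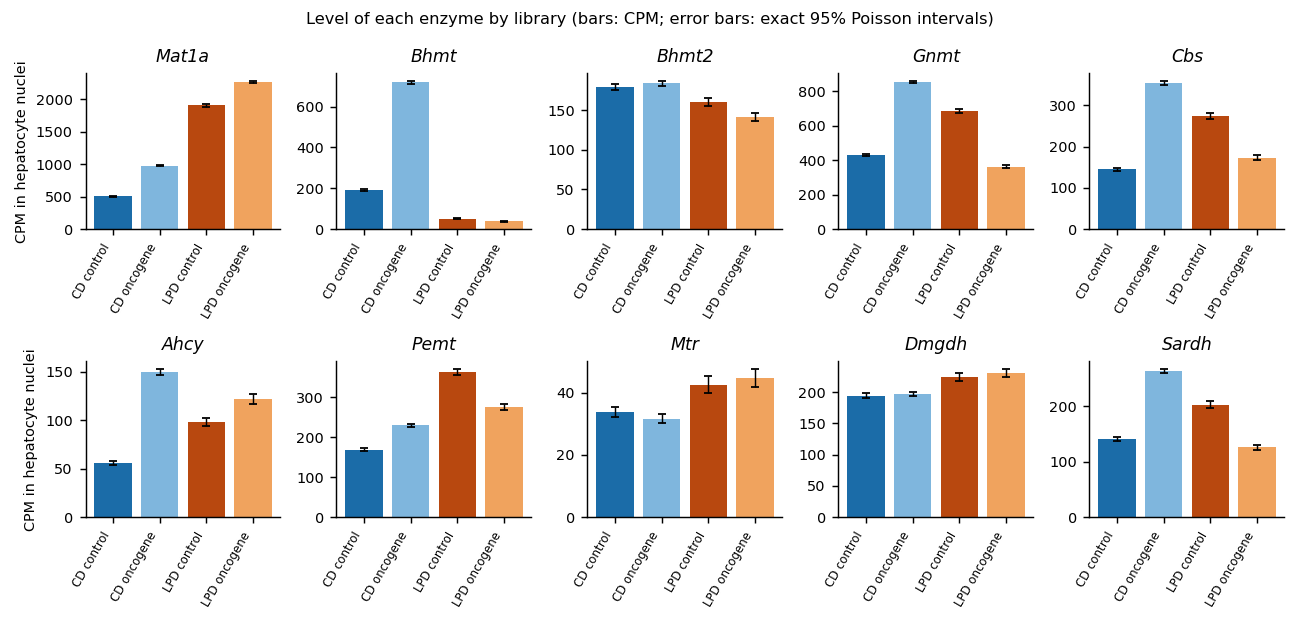
Level of each enzyme (CPM, linear axis) in the hepatocyte nuclei of the 4 libraries; bars are the values of single libraries and error bars are exact 95% Poisson intervals. Mat1a is at 1908 and 2266 CPM in the LPD libraries and at 507 and 976 CPM in the CD libraries. Bhmt is at 51.2 and 39.2 CPM on LPD and at 191 and 720 CPM on CD.

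Mat1a (ENSMUSG00000037798, chromosome 14, 41105035 to 41124412, plus strand), which makes SAM in the adult liver, had a level of 507 CPM (95% interval 501 to 513) and 976 CPM (968 to 985) on CD. Its level on LPD was 1908 CPM (1889 to 1927) and 2266 CPM (2245 to 2288). Both LPD libraries were above both CD libraries, and the 4 values were all separated by more than counting error. The log2 ratio of LPD over CD was 0.97 to 2.16 in the 4 pairs. Mat1a was also above both CD libraries in every zone, with pair ratios of 1.00 to 2.22 in periportal-like, 0.98 to 2.06 in mid and 0.90 to 2.23 in pericentral-like nuclei.

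Among the enzymes that use SAM, Gnmt and Pemt behaved differently. Gnmt (ENSMUSG00000002769, chromosome 17, 46725664 to 46729168, minus strand), which methylates glycine and thereby disposes of excess SAM, was at 427 CPM, 853 CPM, 686 CPM and 362 CPM. The CD and LPD libraries interleaved, with the library labelled LPD oncogene lowest and CD oncogene highest. Pemt (ENSMUSG00000000301, chromosome 11, 59970614 to 60046489, minus strand), which makes phosphatidylcholine with 3 methyl groups, was at 168 CPM, 230 CPM, 363 CPM and 275 CPM. Both LPD libraries were above both CD libraries, by log2 ratios of 0.26 to 1.11, and the lowest of these was close to the median of all genes in that pair, 0.23.

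Ahcy (ENSMUSG00000027597, chromosome 2, 155059310 to 155074497, minus strand), which removes the product inhibitor of methyltransferases, was at 55.5 CPM, 150 CPM, 98.2 CPM and 122 CPM. The LPD values lay between the 2 CD values. Cbs (ENSMUSG00000024039, chromosome 17, 31608894 to 31637238, minus strand), the entry into transsulfuration, was at 145 CPM, 355 CPM, 275 CPM and 173 CPM, again with both LPD libraries between the CD libraries.

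Among the remethylating enzymes, Bhmt varied most between libraries of all 10 members, and Bhmt2 and Mtr varied little. Bhmt, which transfers a methyl group from betaine to homocysteine, had a level of 191 CPM (187 to 195) and 720 CPM (713 to 727) on CD. On LPD its level was 51.2 CPM (48.2 to 54.4) and 39.2 CPM (36.5 to 42.1). Both LPD libraries were below both CD libraries, with log2 ratios of -1.90, -2.28, -3.81 and -4.20 in the 4 pairs, and the CD libraries themselves differed by 1.91. Bhmt2, which uses S-methylmethionine in place of betaine, was at 179 CPM, 184 CPM, 160 CPM and 142 CPM, and its pair ratios lay between -0.37 and -0.16. Mtr (ENSMUSG00000021311, chromosome 13, 12182712 to 12258113, minus strand), the cobalamin-dependent enzyme that uses methylfolate, was at 33.7 CPM, 31.6 CPM, 42.5 CPM and 44.7 CPM. Its CD libraries did not differ beyond counting error (log2 ratio of oncogene over control -0.09, interval -0.19 to 0.01), nor did its LPD libraries (0.07, -0.06 to 0.21). The LPD libraries were higher by 0.33 to 0.50, beside medians of all genes of 0.13 to 0.25 in these pairs. In the sum of the other classes Mtr was at 49.7, 36.7, 75.2 and 91.3 CPM, so it was higher on LPD there as well. That sum held 116, 114, 270 and 690 Kupffer nuclei, in which Mtr was at 134, 78.0, 174 and 174 CPM. The part of their number in this difference was not tested.

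The enzymes that pass methyl groups on to folate were Dmgdh at 194 CPM, 197 CPM, 224 CPM and 231 CPM, and Sardh (ENSMUSG00000009614, chromosome 2, 27188393 to 27248337, minus strand) at 141 CPM, 264 CPM, 203 CPM and 126 CPM. Dmgdh varied least of the members: its pair ratios lay between 0.18 and 0.25, near the medians of all genes, and neither the CD pair (0.02, -0.02 to 0.06) nor the LPD pair (0.05, -0.01 to 0.11) differed beyond counting error. Sardh interleaved between the diets in the order seen for Gnmt. Bhmt thus stood apart from Bhmt2 and Dmgdh, its neighbours on the chromosome, whose 4 libraries spanned 142 to 184 CPM and 194 to 231 CPM.

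Over the 7251 genes with at least 20 CPM in 1 library and 100 UMIs in all, the log2 ratio of LPD to CD had a median of 0.13 to 0.25 in the 4 pairs. It was -0.11 for CD oncogene over CD control and -0.03 for LPD oncogene over LPD control. A gene was called when it passed 1.5-fold in the same direction in all 4 pairs after these medians were subtracted. By this rule 1 member was higher on LPD, Mat1a, and 1 was lower, Bhmt. Of all genes, 5.31% were called higher on LPD and 5.31% lower, and the median of the members over the mean of the 4 pairs was 0.08, against 0.19 for all genes. The remaining 8 members did not pass this rule. Without the library labelled CD control, 3 members were called lower on LPD (Bhmt, Cbs and Sardh). Without the library labelled CD oncogene, 2 were called higher (Mat1a and Ahcy). With fewer pairs the rule is easier to pass for any gene, and no share of all genes is set beside these counts.

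**Figure D2:**
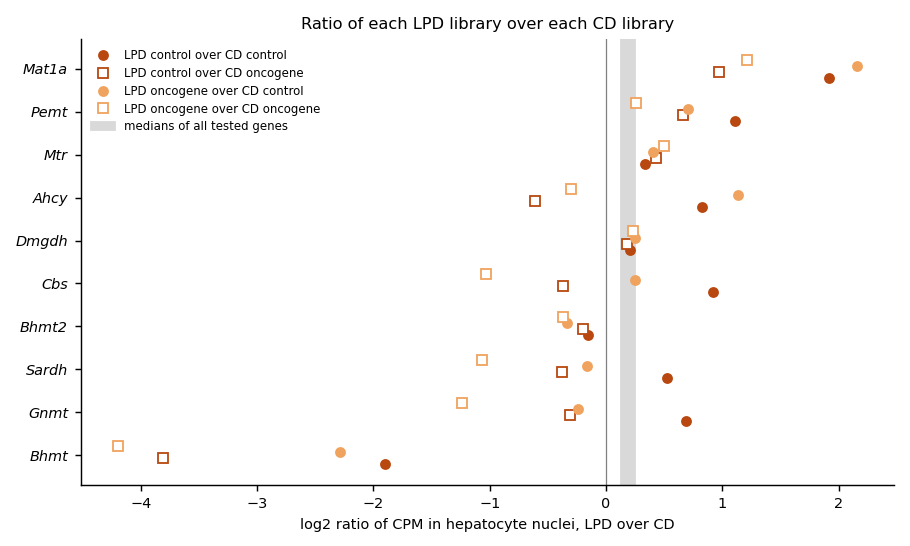
Log2 ratio of CPM of each LPD library over each CD library for the 10 enzymes; each symbol is 1 pair of libraries and the grey band spans the medians of all tested genes in the 4 pairs, 0.13 to 0.25. All 4 symbols of Mat1a lie to the right of the band and all 4 of Bhmt far to the left, while Gnmt, Cbs, Ahcy and Sardh have symbols on both sides of it.

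Because depth, mitochondrial share and hepatocyte RNA outside hepatocytes all moved with diet, the Mat1a and Bhmt ratios were measured again with a setting aimed at each. Such settings do not separate these properties from diet. With nuclei of at most 0.5% mitochondrial UMIs, the mean log2 ratio of the 4 pairs was 1.54 for Mat1a and -2.96 for Bhmt, against 1.56 and -2.92 with all hepatocyte nuclei. Under CD control this limit kept 198 of 1979 periportal-like, 222 of 2390 mid and 703 of 4005 pericentral-like nuclei. Under LPD control it kept 3192 of 3471, 1975 of 2331 and 1819 of 2206. With each nucleus thinned to 1000 UMIs the means were 1.53 and -2.90. After the CPM of the other classes was subtracted they were 1.88 and -2.38. Both members were called in each of these.

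The shares of nuclei with a Bhmt UMI gave the same order as the CPM. In nuclei thinned to 1000 UMIs, 16.7%, 45.1%, 4.83% and 3.81% of hepatocyte nuclei held at least 1 Bhmt UMI, and without thinning 49.1%, 77.7%, 10.5% and 9.04% did. In the nuclei of all other classes, which should lack Bhmt, the thinned shares were 9.39%, 25.9%, 0.743% and 0.708%. Median depth before thinning was 5252, 4246, 2366.5 and 2422 UMIs in these hepatocyte nuclei and 1524.5, 1507, 1227 and 1237 UMIs in the others. The share in hepatocytes was above that in the other classes in each library.

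By CPM, every member except Mtr was higher in hepatocyte nuclei than than in the sum of the other classes, in each library. The ratio was 2.98 to 11.5 for Mat1a, 1.90 to 4.45 for Bhmt and 2.44 to 4.79 for Gnmt. For Mtr, the broadly used methionine synthase, it was 0.678, 0.861, 0.565 and 0.490, so its share of UMIs was lower in hepatocytes than in the other classes. Bhmt was at 101 CPM, 314 CPM, 15.2 CPM and 8.82 CPM in the other classes, and followed its level in hepatocytes. The part of free hepatocyte RNA in the levels within hepatocytes was not tested.

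Hepatocytes differ along the axis from portal to central vein, and each nucleus was placed on it by its own expression. The score was the mean log-normalized level of 10 periportal markers, such as Cyp2f2 and Hal, minus that of 11 pericentral markers, such as Glul and Cyp2e1. The pooled scores, with equal weight for each library, were divided into 3 equal parts of periportal-like, mid and pericentral-like nuclei. These are ranges of a score and not types: 3375 of the hepatocyte nuclei (9.98%) lay within 0.05 of a limit. Periportal-like nuclei were 23.6%, 42.4%, 43.3% and 24.0% of hepatocytes in the 4 libraries, and pericentral-like nuclei 47.8%, 23.7%, 27.5% and 34.2%. Several pericentral markers are targets of β-catenin, and under the label CD control 86 of 88 hepatocyte nuclei with a transgene UMI fell in the pericentral-like range. The median mitochondrial share moved with zone on CD, from 3.22% in periportal-like to 1.52% in pericentral-like nuclei under control and from 0.841% to 0.430% under oncogene.

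Of the 10 enzymes, 3 were lower in pericentral-like than in periportal-like nuclei by edgeR's quasi-likelihood test over the 4 libraries, and 0 were higher. These were Cbs, Gnmt and Bhmt2. DESeq2 also called 3 lower and 0 higher, and so did edgeR on nuclei of at most 0.5% mitochondrial UMIs. Of 14485 genes tested outside the zone markers, 11.3% were lower and 10.6% were higher at an adjusted p under 0.05. At an unadjusted p under 0.05, Mtr was the 1 member on the higher side (log2 fold change 0.17, SE 0.07, adjusted p = 0.122 by edgeR). The median log2 fold change of the members was -0.04, against 0.00 for all genes, and no list test was made.

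Cbs had the steepest fitted gradient, and its interval lay below 0 in each of the 4 libraries. Periportal-like, mid and pericentral-like nuclei held 176, 171 and 115 CPM under the label CD control, 409, 361 and 275 CPM under CD oncogene, 344, 271 and 179 CPM under LPD control, and 210, 176 and 148 CPM under LPD oncogene. It was thus lowest in pericentral-like nuclei in 4 of 4 libraries. The fitted log2 fold change was -0.70 (SE 0.07, edgeR adjusted p = 1.65e-05).

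Gnmt held 620, 482 and 289 CPM under CD control, 907, 874 and 760 CPM under CD oncogene, 789, 686 and 543 CPM under LPD control, and 357, 343 and 384 CPM under LPD oncogene. It was lower in pericentral-like nuclei in 3 of 4 libraries, and slightly higher there under LPD oncogene, with a log2 ratio of 0.11 (0.02 to 0.20). The fitted log2 fold change was -0.49 (SE 0.15, edgeR adjusted p = 0.0318). The call was lost without the library labelled CD control, CD oncogene or LPD control, with adjusted p = 0.153, 0.0793 and 0.127 by edgeR.

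Bhmt2 held 180, 186 and 174 CPM under CD control, 199, 192 and 155 CPM under CD oncogene, 163, 173 and 145 CPM under LPD control, and 145, 148 and 133 CPM under LPD oncogene. The pericentral-like value was lowest in all 4 libraries, and its difference from periportal-like nuclei passed counting error in CD oncogene and LPD control. The fitted log2 fold change was -0.22 (SE 0.06, edgeR adjusted p = 0.0150). Without CD oncogene or LPD control the adjusted p was 0.111 and 0.0511 by edgeR, and thinning to 1000 UMIs gave 0.0765.

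**Figure D3:**
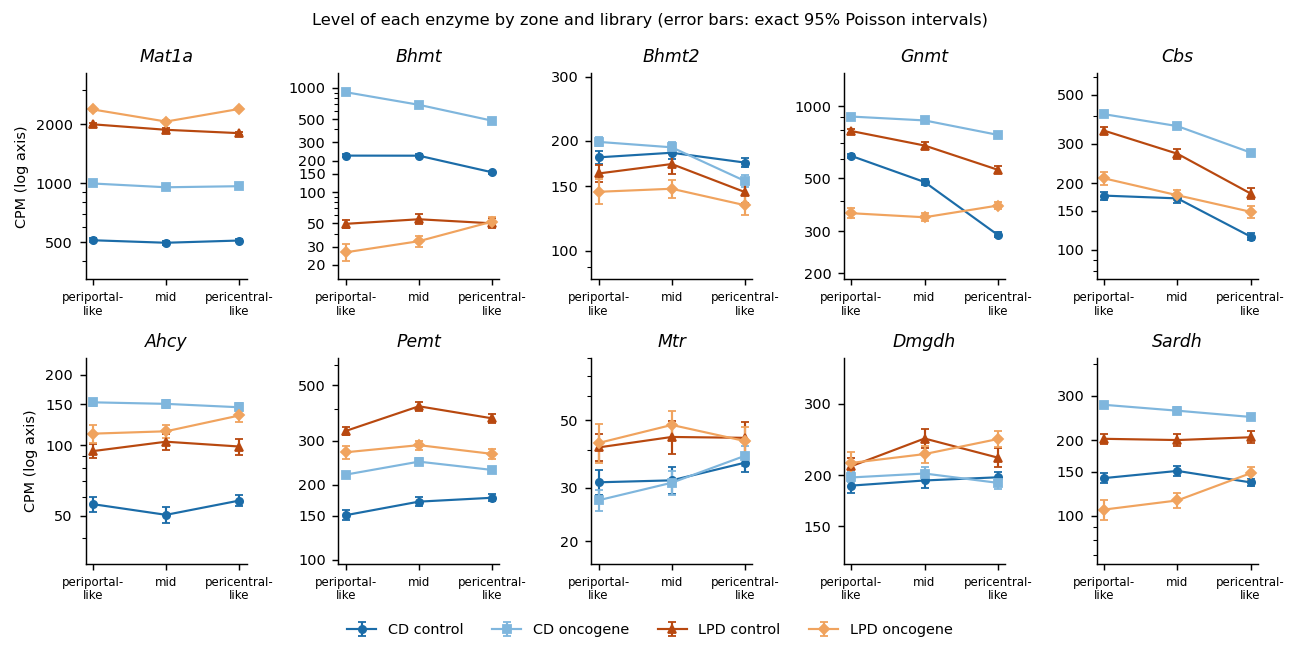
CPM (log axis) of each enzyme in periportal-like, mid and pericentral-like hepatocyte nuclei; each line is 1 library and error bars are exact 95% Poisson intervals. Cbs declines toward the pericentral-like nuclei in all 4 libraries, the Mat1a lines are nearly flat, and the Bhmt lines of the CD libraries decline while that of LPD oncogene rises from 26.4 to 52.1 CPM.

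The other members, except Mtr and Bhmt, were near even over the axis in the fit. Mtr was higher in pericentral-like nuclei on CD, by 0.21 (0.04 to 0.39) under control and 0.49 (0.33 to 0.64) under oncogene. On LPD its ratios were 0.10 (-0.13 to 0.33) and 0.02 (-0.24 to 0.29). Mat1a had a fitted log2 fold change of -0.09 (SE 0.06), with ratios of -0.15 to 0.01 in the single libraries. Ahcy (0.02, SE 0.07), Dmgdh (0.02, SE 0.06) and Sardh (0.01, SE 0.10) were near 0 in the fit, while Sardh was 0.48 (0.32 to 0.64) higher in pericentral-like nuclei under LPD oncogene and 0.16 lower under CD oncogene. Pemt had 0.06 (SE 0.05) in the fit and was highest in mid nuclei in 3 of the 4 libraries. The differences between libraries in Mat1a, from 507 to 2266 CPM, were far larger than any between its zones.

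Bhmt did not pass the test over all 4 libraries (log2 fold change -0.29, SE 0.22, edgeR adjusted p = 0.410), and its zone difference had a different sign in different libraries. Periportal-like, mid and pericentral-like nuclei held 224, 224 and 155 CPM under CD control and 911, 689 and 485 CPM under CD oncogene. They held 49.6, 54.9 and 50.2 CPM under LPD control and 26.4, 33.8 and 52.1 CPM under LPD oncogene. The log2 ratio of pericentral-like over periportal-like nuclei was -0.53 (-0.60 to -0.46) and -0.91 (-0.95 to -0.87) on CD. On LPD it was 0.02 (-0.20 to 0.23) under control and 0.98 (0.68 to 1.29) under oncogene. Bhmt was thus higher in periportal-like nuclei in both CD libraries, without a difference beyond counting error under LPD control, and higher in pericentral-like nuclei under LPD oncogene.

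The difference between the diets was tested with a zone-by-diet term, which treats the 2 libraries of a diet as replicates although their injection labels differ. The gradient of Bhmt was 1.25 (SE 0.23, edgeR adjusted p = 0.00640) higher on LPD than on CD. This SE rests on the 12 sums of library and zone and partly on the spread of all genes. It can therefore understate the spread between libraries of a diet, whose Bhmt ratios on LPD were 0.02 and 0.98. Bhmt was the 1 member of 10 with an adjusted p under 0.05, against 4.67% of all genes. The next was Sardh at 0.42 (SE 0.13, edgeR adjusted p = 0.104), followed by Gnmt at 0.53 (SE 0.23, adjusted p = 0.269). The term stayed between 0.81 and 1.80 when each library was left out, and lost its call without LPD oncogene (0.81, adjusted p = 0.0692 by edgeR). After the CPM of the other classes was subtracted, the ratios of Bhmt were -1.19, -1.81, 0.02 and 1.30 in the 4 libraries, so their order was kept. Low counts limit the LPD ratios, which rested on 444 periportal-like and 319 pericentral-like Bhmt UMIs under control and on 115 and 393 under oncogene.

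**Figure D4:**
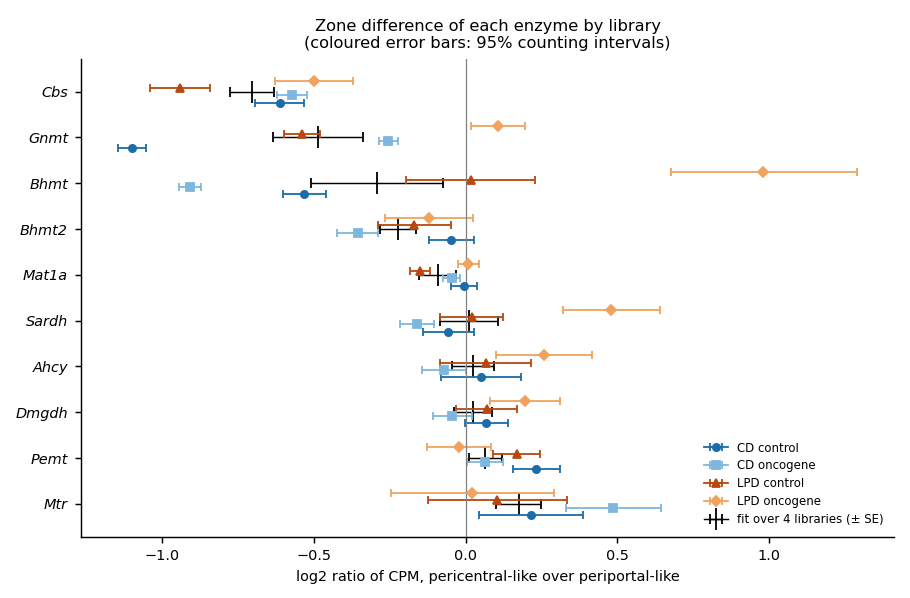
Log2 ratio of CPM in pericentral-like over periportal-like nuclei for each enzyme; coloured symbols are single libraries with 95% counting intervals, and black bars are the edgeR fit over 4 libraries ± SE. Cbs lies left of 0 in every library, from -0.94 to -0.50, and Bhmt spreads from -0.91 under CD oncogene to 0.98 under LPD oncogene.

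Between the injection labels on CD, 6 members were called higher in the library labelled CD oncogene (Mat1a, Bhmt, Gnmt, Cbs, Ahcy and Sardh), and none was lower, against 8.29% and 4.7% of all genes. The log2 ratios of CD oncogene over CD control were 0.95 for Mat1a, 1.91 for Bhmt, 1.00 for Gnmt, 1.29 for Cbs, 1.43 for Ahcy and 0.90 for Sardh, and the median of the members with the pseudocount was 0.91, against -0.11 for all genes. Bhmt2, Dmgdh and Mtr lay between -0.09 and 0.04, and Pemt was at 0.45. If the 2 CD labels were exchanged, each of these would change sign. The libraries also differed in the mitochondrial share of their hepatocytes (1.90% and 0.758%) and in their shares of zones, and with zones weighted equally 6 members were again called higher.

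On LPD, 3 members were called lower in the library labelled LPD oncogene (Gnmt, Cbs and Sardh) and none was higher, against 3.24% lower and 4.55% higher among all genes. The log2 ratios of LPD oncogene over LPD control were -0.92 (-0.97 to -0.88) for Gnmt, -0.67 (-0.73 to -0.61) for Cbs and -0.69 (-0.76 to -0.62) for Sardh. With zones weighted equally, 2 members were called lower, and Cbs was at -0.56 (with the pseudocount). The other members lay between -0.40 (Pemt) and 0.31 (Ahcy). On both diets Gnmt, Cbs, Sardh, Bhmt and Pemt were lower, beyond counting error, in the library that held transgene UMIs. Of these, Bhmt (-0.39) and Pemt on LPD, and Pemt on CD, did not pass the fold limit. Mat1a and Ahcy were lower in that library on CD but higher in it on LPD (0.25 and 0.31). Bhmt2, Dmgdh and Mtr did not differ beyond counting error on CD. The share of all genes with the same direction on both diets was not counted. All this is stated as a property of the libraries, and no group was formed from it.

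Within the library labelled CD control, the 88 hepatocyte nuclei with a transgene UMI were set beside the 8286 without one. Positive nuclei were deeper (median 7338 against 4740.5 UMIs), and negative nuclei can include some whose transgene UMIs were not captured. Gnmt had 166 CPM in positive and 432 CPM in negative nuclei (log2 ratio -1.38, -1.63 to -1.14). Cbs was at 76.3 and 147 CPM (-0.94, -1.32 to -0.59) and Bhmt at 130 and 192 CPM (-0.56, -0.85 to -0.29). The other 7 members, Mat1a among them at 513 and 507 CPM, did not differ beyond counting error.

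Among pericentral-like nuclei of that library alone, 86 positive and 3919 negative, the order stayed the same. Gnmt had a log2 ratio of -0.85 (-1.10 to -0.60), Cbs of -0.60 (-0.98 to -0.24) and Bhmt of -0.29 (-0.59 to -0.01). Glul, a pericentral marker that β-catenin raises, was still higher in the positive nuclei of this range by a log2 ratio of 1.53. Whether positive and negative nuclei differed in position within this range was not tested.

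The other genes of methyl and one-carbon metabolism gave the setting. Of 49 listed genes, all of which passed the filter of the zone test, 15 were lower and 4 higher in pericentral-like nuclei (edgeR, adjusted p under 0.05), with a median log2 fold change of -0.11 over the list, against 11.3% and 10.6% of all genes. The largest differences were in the glycine cleavage gene Gldc (-2.37, SE 0.18) and in folate genes: Mthfd1l, the mitochondrial formate producer (-1.77, SE 0.28), Aldh1l2 (-1.71, SE 0.30) and Ftcd, which takes carbon from histidine breakdown (-1.44, SE 0.11). Psat1, of serine synthesis, was lower by a like amount (-1.48, SE 0.40), but in the single libraries its interval and that of Aldh1l2 included 0 in both CD libraries. On CD, Psat1 was at 0.286 and 0.157 CPM and Aldh1l2 at 0.143 and 0.0698 CPM, so both fold changes rest mainly on LPD. Cth, which follows Cbs in transsulfuration, was lower as well (-0.37, SE 0.10). The methyltransferases divided. Nnmt (-1.12, SE 0.10), As3mt (-0.65, SE 0.13), Hnmt (-0.63, SE 0.08) and Gamt (-0.31, SE 0.08) were lower in pericentral-like nuclei, and Inmt (0.53, SE 0.07) and the DNA methyltransferase Dnmt3a (0.20, SE 0.05) were higher. Fpgs, which adds glutamates to folate, was also higher (0.18, SE 0.06). Without CD oncogene or LPD oncogene, 2 genes of the list in place of 4 were called higher.

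**Figure D5:**
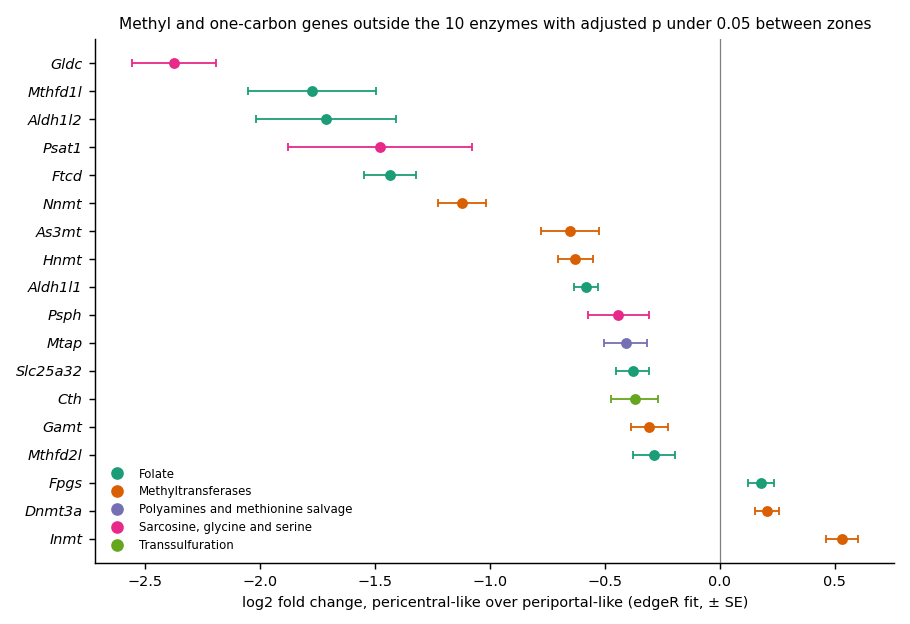
Log2 fold change between pericentral-like and periportal-like nuclei (edgeR fit over 4 libraries, ± SE) for 18 genes of methyl and one-carbon metabolism outside the 10 enzymes with an adjusted p under 0.05, coloured by role. Of these, 15 lie left of 0, from Gldc at -2.37 to Mthfd2l at -0.29, and 3 lie to the right, up to Inmt at 0.53. The values of Aldh1l2 and Psat1 rest mainly on the LPD libraries. In single libraries the interval of Psph also included 0 in both CD libraries, and those of Cth, Gamt and Mthfd2l included 0 in both LPD libraries.

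The zone-by-diet term was called for 6 of the 49 genes, against 4.67% of all genes. It was positive, as for Bhmt, for Cth (0.63, SE 0.10, edgeR adjusted p = 0.00242), whose log2 zone ratios were -0.66 and -0.51 on CD and 0.02 and -0.08 on LPD. It was negative for Mthfd1l (-1.72, SE 0.21), Gldc (-1.08, SE 0.18), Mthfd2 (-0.75, SE 0.18), As3mt (-0.69, SE 0.16) and Shmt1 (-0.35, SE 0.09). For each of these 5, the ratio of pericentral-like over periportal-like nuclei was lower in both LPD libraries than in both CD libraries. That order follows in large part from their call, which used the same libraries.

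Between the diets, 34 of the 49 genes passed the filter on level, of which 3 were called higher and 3 lower on LPD, against 5.31% of all genes in each direction. Shmt2, the mitochondrial serine hydroxymethyltransferase, was at 38.2, 37.8, 102 and 79.6 CPM. Slc25a32, the mitochondrial folate carrier, was at 32.2, 31.7, 77.0 and 77.9 CPM. As3mt, a methyltransferase of arsenic, was at 20.7, 30.1, 94.9 and 78.7 CPM. The lower ones were Aldh1l1, which oxidizes formyl-folate in the cytosol, at 417, 468, 226 and 210 CPM, Ftcd at 510, 604, 371 and 208 CPM, and the thiopurine methyltransferase Tpmt at 86.7, 72.8, 50.2 and 38.2 CPM. That the LPD libraries of these 6 genes did not overlap the CD libraries follows from the rule by which they were called. The other isozymes of SAM synthesis, Mat2a and its regulator Mat2b, were not called: Mat2a was at 98.6, 59.1, 90.1 and 80.2 CPM.

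For each member, the gene outside the members and zone markers with the most similar pattern was taken over the 12 sums of library and zone. For Bhmt this was Steap3 (Pearson r = 0.99 of log2(CPM + 5), n = 12 sums), for Gnmt Acat3 (0.98), for Ahcy Igfbp1 (0.98), for Pemt Pfdn2 (0.99), for Mtr March8 (0.98), for Dmgdh Ap2a1 (0.97), for Sardh Abcc6 (0.96), for Cbs Gm31814 (0.95), for Bhmt2 Mug2 (0.93) and for Mat1a AC149090.1 (0.99). The 12 sums share 4 libraries, so these values mostly describe differences between libraries. The best of 7610 genes is high for any gene, and no p-value is attached. Among the members, Bhmt and Mtr ran opposite to each other most closely (r = -0.87).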

How the data were processed

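The authors deposited raw UMI counts per gene and nucleus barcode for 4 libraries, not normalized. Per the file headers these were made with Cell Ranger 9.0.1, and the submitters' processing notes name Cell Ranger, Seurat 5 and the mm10 build. The study's methods add the human c-MET and CTNNB1 sequences to the genome. Whether intronic reads were counted is not given in the sources used here, and neither is whether strand was used, so reads of Gm15622, Gm26904, Gm45609, Sardhos, AW495222 and Gm15620, annotated on the opposite strand within 5 of the members, may be mixed in if it was not.

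Nuclei with 200 to 7000 genes and at most 21% mitochondrial UMIs were kept, as in the study. In place of the study's clustering, each nucleus was assigned to a cell class by a multinomial likelihood of profiles seeded from marker genes in its own library, with members, mitochondrial genes and transgenes left out. Nuclei fitted best by a 50% mixture of hepatocyte and another class were removed as doublets if they held at least 2 marker UMIs of that class. Those with fewer were kept as hepatocytes, and no doublet caller was run. The hepatocyte class also included a second profile, seeded from shallow nuclei with a high mitochondrial share. It took 2884, 3361, 913 and 1018 of the hepatocyte nuclei. Hepatocyte UMIs were summed per library and zone, with zones from a marker score.

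Zones were tested with edgeR 4.0.16 (quasi-likelihood, TMM, library as a block) in R 4.3.3 on 12 sums, with Benjamini-Hochberg adjustment over all genes. The fit was also run on simulated counts that had the same zone change in every library. Gradients that differ between libraries, as that of Bhmt did, were not simulated. Library contrasts are log2 ratios with a pseudocount of 5 CPM for calls, printed without it for single genes, and carry conditional 95% intervals. CPM carry exact Poisson and shares exact Clopper-Pearson intervals. Leaving out libraries, DESeq2 1.42.0 and other gates, filters and scalings were the alternatives. The members and lists were chosen with earlier results of these data known. Named were all members, listed pathway genes called in a comparison, and the most similar gene of each member; Mat2a was named after its values were seen. Positions are from GENCODE vM21 (GRCm38, the same assembly as mm10). Of the listed pathway genes, 1 is counted but not reported here by name.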

Additional observations from a re-analysis of the deposited data

Results flagged for a closer look

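The zone difference of Bhmt differed between the diets by the zone-by-diet term, whose SE can understate the spread between libraries of a diet. By this term the log2 ratio of pericentral-like over periportal-like nuclei was 1.25 higher on LPD than on CD. It was negative in both CD libraries, 0.02 (-0.20 to 0.23) under LPD control and positive beyond counting error under LPD oncogene alone. Without LPD oncogene the difference was 0.81, with an adjusted p of 0.0692 by edgeR.

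For Gnmt, Cbs and Sardh, the libraries of the 2 injection labels differed in opposite directions on the 2 diets, as labelled. With the pseudocount of 5 CPM, the log2 ratio of oncogene over control was 0.99 on CD and -0.91 on LPD for Gnmt, 1.26 and -0.65 for Cbs, and 0.88 and -0.67 for Sardh. These differences between the diets were not tested, since each group is 1 library, and they rest on the CD labels, which the transgene UMIs went against. If the CD labels were exchanged, each CD ratio would change sign and have the sign of the LPD ratio.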

How the results depend on the processing

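The 3 members lower in pericentral-like nuclei became 0 without the replicate block (the 3 zones of a library come from the same tissue, and the block pairs them), and were 1 to 4 when each library was left out. The 0 members higher there remained 0 in each. Of the listed pathway genes, 2 to 4 were higher and 10 to 13 lower with a library left out, against 4 and 15. The zone-by-diet term of Bhmt was 0.81 to 1.80 with a library left out and passed the threshold under the 9 other gates and filters of nuclei. Of the members called by diet, 0 in place of 1 were higher at a fold limit of 2, and leaving out a library gave 1 to 2 higher and 1 to 3 lower. At that limit, 1 in place of 3 listed genes were higher and 1 in place of 3 lower by diet, and 0 in place of 3 members were lower in LPD oncogene. The cause was not tested, except that a higher fold limit leaves fewer calls by construction. No called value reversed its sign under the alternatives run. The counts under alternatives, here and above, are given without the share of all genes called in the same way. Depth limits Bhmt on LPD most, where a sum of 1 library and zone rested on as few as 115 UMIs. The diet is confounded with depth, mitochondrial share and free hepatocyte RNA, and 1 library per group leaves differences between mice unmeasured.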
